A study of Mus musculus with 12 samples.

Results

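The genes of 8 chemokine receptors that guide T cells into tissues, Cxcr3, Cxcr6, Ccr2, Cx3cr1, Ccr9, Ccr6, Ccr4 and Cxcr4, were followed in CD8 T cells with and without the transcription factor TCF-1. They were chosen by gene symbol and are 8 of the 35855 genes that the RNA-seq files measure. The study asked how the absence of TCF-1 from donor T cells alters graft-versus-host disease after allogeneic transplantation. Its 12 libraries fall into 4 groups of 3. WT pre-transplant and TCF-1 cKO pre-transplant cells were CD8 T cells sorted from the spleen of C57BL/6 background donor mice. WT post-transplant and TCF-1 cKO post-transplant cells were donor CD8 T cells sorted from the spleen of lethally irradiated BALB/c recipients at day 7. TCF-1 cKO mice carry floxed TCF-1 alleles and CD4cre, so the gene is lost in all T cells from the double-positive thymocyte stage on, and the grafts of both post-transplant groups also held WT bone marrow. TCF-1 cKO post-transplant replicate 2 carries one label with CD4 and is treated by its title as CD8. The labels do not say whether replicates came from separate mice, so p-values measure the spread between these libraries, which may be partly technical.

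Chemokine receptors are G protein-coupled receptors that read gradients of secreted chemokines and turn them, through Gi proteins, PI3K and Rac, into directed migration and integrin adhesion. In graft-versus-host disease, donor T cells are activated in the spleen and other lymphoid organs and then enter the liver, gut and skin, and the receptors they carry set which of these tissues they can enter. CXCR3 reads the interferon-induced ligands CXCL9, CXCL10 and CXCL11, CXCR6 reads CXCL16 in the liver, CCR2 reads CCL2, CX3CR1 reads fractalkine on vessels, CCR9 reads CCL25 in the small intestine, CCR6 reads CCL20 at mucosal surfaces, CCR4 reads CCL17 and CCL22 in skin, and CXCR4 reads CXCL12 in bone marrow.

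Of the members, 5 lie on chromosome 9 (GRCm38, as are all positions here). Ccr9 (123678439 to 123784330), Cxcr6 (123806475 to 123811760) and Ccr2 (124101950 to 124113557) lie within 435119 bases on the plus strand, and Ccr4 (114490316 to 114504916) and Cx3cr1 (119901616 to 120069879) lie apart on the minus strand. Cxcr3 is on chromosome X (101731535 to 101734269), Cxcr4 on chromosome 1 (128588199 to 128592293) and Ccr6 on chromosome 17 (8236043 to 8257141). All 8 are protein-coding genes. The share of their 31-base words that also occurs in another gene is 0% for Cxcr3 and Cxcr6, 21.7% for Ccr9, mostly with the overlapping model AC165425.1, and between 0.111% and 3.48% for the rest. The level of Ccr9 is therefore uncertain, since reads can be split between the models.

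The 250 bases before the annotated start are shown for 4 members, from RefSeq on GRCm38.p6. Cxcr3 and Cxcr6 are the members called between genotypes post-transplant, and Ccr4 and Ccr6 hold the letters of a TCF/LEF word, CTTTGAA or CTTTGAT on either strand, in capitals.
Cxcr3, chrX:101734148-101734397, minus strand: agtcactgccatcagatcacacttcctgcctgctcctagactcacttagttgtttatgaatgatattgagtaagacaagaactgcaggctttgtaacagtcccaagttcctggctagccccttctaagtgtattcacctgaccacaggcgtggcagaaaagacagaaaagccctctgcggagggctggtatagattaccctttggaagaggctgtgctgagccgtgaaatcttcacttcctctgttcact
Cxcr6, chr9:123806227-123806476, plus strand: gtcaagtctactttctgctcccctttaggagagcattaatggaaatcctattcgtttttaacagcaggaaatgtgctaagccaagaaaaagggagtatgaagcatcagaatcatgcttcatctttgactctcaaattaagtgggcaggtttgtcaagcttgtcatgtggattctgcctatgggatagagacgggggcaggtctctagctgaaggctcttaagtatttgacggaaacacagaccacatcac
Ccr4, chr9:114496545-114496794, minus strand: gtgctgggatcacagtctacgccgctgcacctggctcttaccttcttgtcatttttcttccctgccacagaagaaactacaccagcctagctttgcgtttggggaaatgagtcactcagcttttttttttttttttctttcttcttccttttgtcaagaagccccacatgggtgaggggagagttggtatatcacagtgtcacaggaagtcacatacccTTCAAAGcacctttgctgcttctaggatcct
Ccr6, chr17:8235793-8236042, plus strand: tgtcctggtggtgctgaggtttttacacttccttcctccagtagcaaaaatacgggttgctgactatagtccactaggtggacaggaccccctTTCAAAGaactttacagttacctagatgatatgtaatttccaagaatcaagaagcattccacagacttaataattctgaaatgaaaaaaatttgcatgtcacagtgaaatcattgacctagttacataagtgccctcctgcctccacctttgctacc
The word lies at bases -31 to -25 of Ccr4 and -157 to -151 of Ccr6, as the reverse complement TTCAAAG in both. It was found in 2 of the 9 member windows (Ccr6 has 2 starts), and 7.48% of all 32851 windows of this length hold it. The T-box word GGTGTGA, on either strand, was in no member window and in 3.33% of all windows. A match describes letters only.

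Library totals ran from 4520270 to 9577076 estimated counts in TCF-1 cKO pre-transplant and from 18184814 to 32657005 in the other 9 libraries, so 3 counts, the smallest level taken as shown, equal 0.0919 to 0.664 CPM (the count scaled to a common library total). Floors and shares cover counting error only. The members ranged from 4 counts (Ccr4, WT post-transplant replicate 1) to 20659 counts (Cxcr6, TCF-1 cKO post-transplant replicate 3). The targeted gene Tcf7 was at 115 to 205 CPM in WT and 56.8 to 97.1 CPM in TCF-1 cKO libraries pre-transplant. Post-transplant it was at 6.89 to 17.2 and 8.9987 to 9.48 CPM, and the library labelled WT replicate 3 held the lowest value of all 6. Post-transplant results below use that library as labelled.

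The sorted label was checked against marker genes, summed in CPM of the library total. Post-transplant the 6 T cell markers (Cd3d, Cd3e, Cd3g, Cd8a, Cd8b1 and Lck) summed to 4806 to 6851 CPM and the 7 B cell markers (among them Ms4a1, Cd79a and Ighm) to 229 to 472 CPM. Pre-transplant the T cell markers summed to 1863 to 2187 CPM in WT and 783 to 1052 CPM in TCF-1 cKO libraries, whereas the B cell markers summed to 14042 to 17899 and 10053 to 15382 CPM. The B cell sum was 6.42 to 9.61 times the T cell sum of the same library in WT and 12.8 to 17.6 times in TCF-1 cKO, without overlap. Cd8a was at 131 to 199.96 CPM in WT pre-transplant and 47.7 to 66.2 CPM in TCF-1 cKO pre-transplant, beside 106 to 143 and 49.6 to 75.2 CPM of Cd4. The pre-transplant libraries thus held more B cell than T cell marker RNA, against their label. Other lists were also higher pre-transplant in both genotypes. The 9 monocyte, macrophage and neutrophil markers summed to 1622 to 3729 CPM pre-transplant and 120 to 506 post-transplant, and the 5 erythroid markers to 4449 to 26434 and 203 to 1193. The 7 dendritic cell markers summed to 384 to 746 and 73.2 to 359 CPM, the 4 NK cell markers to 45.4 to 208 and 6.62 to 32.5 CPM, and the 4 CD4 T cell markers to 80.7 to 225 and 3.82 to 50.3 CPM. No marker gene was at 0 in any pre-transplant library. In bulk RNA, fewer cells of a type and less RNA per cell cannot be told apart, and each stage comparison is therefore also given per 1000 CPM of summed T cell markers, a scale added after the data were seen.

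**Figure D1:**
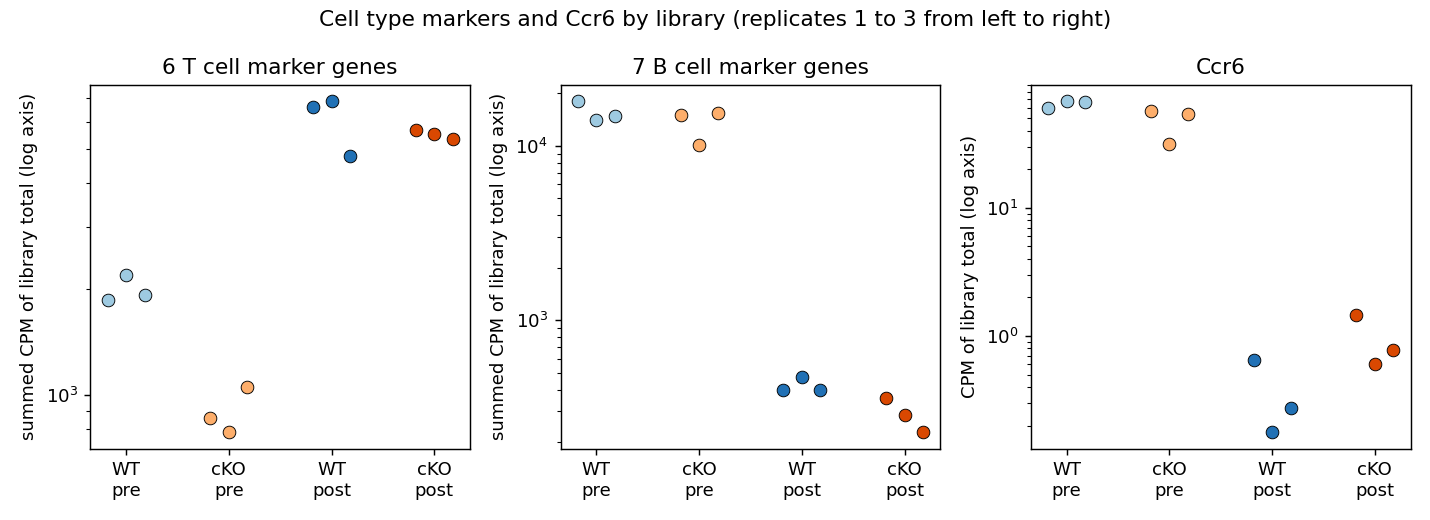
Summed CPM of the library total of the 6 T cell markers (left), the 7 B cell markers (middle) and CPM of Ccr6 (right) in each library, on log axes, with WT and TCF-1 cKO libraries pre- and post-transplant side by side and replicates 1 to 3 from left to right. All 6 pre-transplant libraries lie above all 6 post-transplant libraries for B cell markers (10053 or more against 472 or less) and for Ccr6, and below them for T cell markers.

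The receptors were first ranked within each group by TPM, which allows for transcript length. In WT pre-transplant cells Ccr6 (71.3 ± 9.80 TPM, SD, n = 3), Cxcr3 (58.3 ± 11.1) and Cxcr6 (51.6 ± 9.69) led, with overlapping neighbours. Cxcr4 followed at 21.2 ± 6.80 TPM, below every Cxcr6 value, then Ccr9 (16.7 ± 3.67), Ccr2 (9.11 ± 4.804) and Cx3cr1 (7.06 ± 3.15), each overlapping the next, and Ccr4 was lowest at 1.54 ± 1.63. TCF-1 cKO pre-transplant cells had the same 3 genes in front, Ccr6 at 56.997 ± 9.91, Cxcr6 at 40.4 ± 10.8 and Cxcr3 at 32.9 ± 20.02 TPM, and the other 5 lay between 4.99 and 10.6 TPM with ranges that overlapped from one to the next.

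The order was different at day 7. In WT post-transplant cells Cxcr3 (184 ± 133 TPM), Cxcr6 (101 ± 61.3), Ccr2 (22.8 ± 22.2) and Cx3cr1 (7.02 ± 4.87) led, each with a range that overlapped the next, and Cxcr4, Ccr9, Ccr6 and Ccr4 averaged 0.178 to 2.81 TPM. In TCF-1 cKO post-transplant cells Cxcr6 stood alone at 336 ± 52.8 TPM, above every value of Ccr2 (48.5 ± 18.7), which lay above every value of Cxcr3 (15.9 ± 2.43), and the other 5 averaged 1.03 to 3.43 TPM. Cxcr6 thus held 79.8% to 83.6% of the summed TPM of the 8 receptors in the TCF-1 cKO post-transplant libraries and 8.51% to 56.5% in the WT ones. Cxcr3 held 3.67% to 4.14% and 20.9% to 88.3%. Ccr6, which held 26.9% to 37.9% in the 6 pre-transplant libraries, held no more than 0.555% post-transplant.

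**Figure D2:**
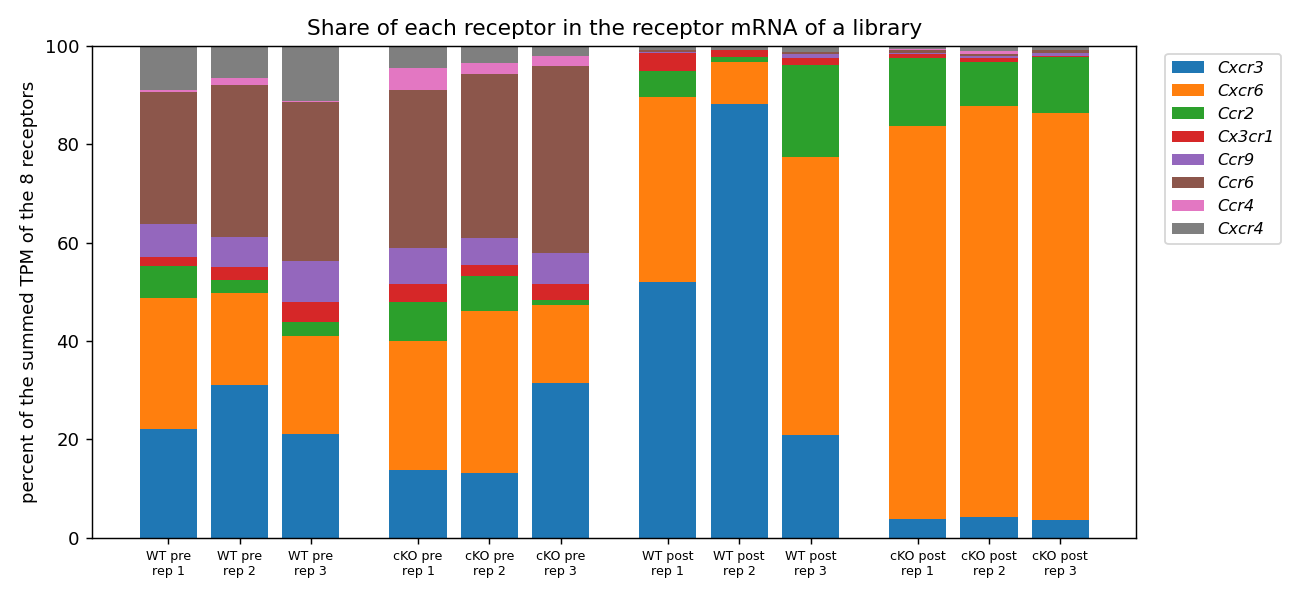
Percent of the summed TPM of the 8 receptors held by each receptor, stacked to 100 for each of the 12 libraries. Cxcr6 fills 79.8% to 83.6% of the bar in the 3 TCF-1 cKO post-transplant libraries, and Cxcr3 and Cxcr6 share the WT post-transplant bars in unequal parts.

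Differences were tested on estimated counts with the quasi-likelihood test of edgeR and p-values adjusted by Benjamini-Hochberg over all genes tested (the adjusted p of every sentence here unless another tool is named), and a call is an adjusted p below 0.1. Levels within a gene are in normalized CPM, which is CPM divided by edgeR's TMM composition factor over the 12 libraries. The factor was 1.24 to 2.31 pre-transplant and 0.457 to 0.696 post-transplant, so stage differences depend on TMM scaling. Each test computed TMM again on the libraries it compared. A fold change therefore need not equal the ratio of the levels beside it. With library totals in place of TMM the median log2 fold change of all genes tested moved from -0.30 to -1.25 in WT post- over pre-transplant. It moved from -0.29 to -1.89 in TCF-1 cKO post- over pre-transplant. In TCF-1 cKO over WT it moved from 0.05 to 0.39 pre-transplant and from 0.15 to 0.54 post-transplant. Log2 fold changes are given with their standard error (SE). All 8 members passed the filter on low counts in every comparison.

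**Figure D3:**
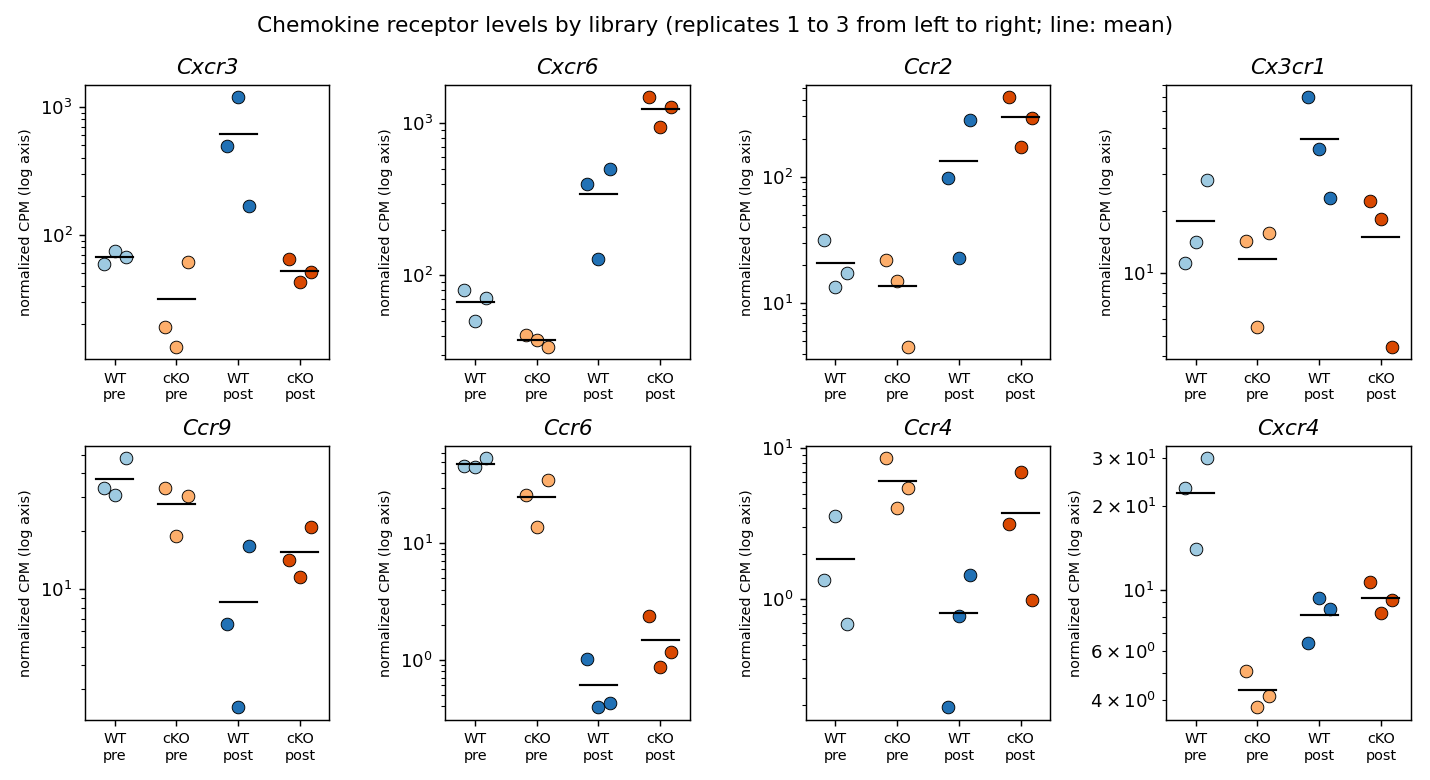
Normalized CPM of each receptor in each library on log axes, with replicates 1 to 3 of each group from left to right and a line at the group mean. Cxcr3 is higher in all 3 WT than in all 3 TCF-1 cKO post-transplant libraries, Cxcr6 is lower, and Ccr6 is below 2.5 normalized CPM in every post-transplant library.

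The genotypes were compared post-transplant to ask how donor cells that lack TCF-1 differ in their receptors after alloactivation. Cxcr3 was lower and Cxcr6 higher in TCF-1 cKO cells, and the other 6 receptors were not called. The 2 calls among 8 members stand beside 17.9% of all 16026 genes tested that were called, 15.4% lower and 2.51% higher, so a lower call is common in this comparison and a higher one is not. The median log2 fold change was 0.79 over the 8 members and 0.15 over all genes tested.

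Cxcr3, the receptor for the interferon-induced chemokines, was at 492, 1187 and 167 normalized CPM in WT post-transplant replicates 1 to 3 and at 64.6, 42.5 and 50.9 in TCF-1 cKO. All WT values exceeded all TCF-1 cKO values (exact permutation test, two-sided, p = 0.1, which 3 against 3 libraries cannot go below), and the WT libraries spread far more than the TCF-1 cKO ones. The log2 fold change was -3.86 (SE 0.76, adjusted p = 0.0448). Cxcr6, the receptor for CXCL16, was at 398, 127 and 503 normalized CPM in WT and at 1483, 952 and 1276 in TCF-1 cKO libraries. Every TCF-1 cKO value lay above every WT value, with a log2 fold change of 1.60 (SE 0.52, adjusted p = 0.0889). In WT the order of the libraries was opposite for these receptors: replicate 2 had the most Cxcr3 and the least Cxcr6, and replicate 3 the reverse.

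The TPM ratio of Cxcr3 to Cxcr6 within a library, which no single factor per library can move, was 1.38, 10.4 and 0.370 in WT and 0.0485, 0.0496 and 0.0444 in TCF-1 cKO post-transplant libraries. A library's trend on GC content or length can still move it. The lowest WT ratio was 7.46 times the highest TCF-1 cKO ratio. Pre-transplant the ratio was 0.822 to 1.67 in WT and 0.397 to 2.001 in TCF-1 cKO libraries, and overlapped. The ratio was chosen after the levels were seen and was not tested.

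Both calls carry limits. Leaving out any 1 of 5 libraries ended both (adjusted p 0.109 to 0.178 for Cxcr3 and 0.109 to 0.289 for Cxcr6), with log2 fold changes of -4.10 to -3.05 and 1.19 to 1.78. Those fits called 0 to 2 genes in all. Both calls stayed without the library labelled WT replicate 3 (log2 fold change -4.38, adjusted p = 0.00150, and 1.77, adjusted p = 0.0576), in a fit that called 5299 of 18183 genes. Across genes, which do not replicate each other, a higher GC content went with a lower log2 fold change (rho -0.57, Spearman). Cxcr3 has the highest GC content of the members, 54.2%, and Cxcr6 one of the lowest, 43.1%, and after an offset for each library's trends on GC content and length the log2 fold change was -2.62 for Cxcr3 (adjusted p = 0.0976) and 0.89 for Cxcr6 (adjusted p = 0.173). Cxcr6 was also not called without a filter (adjusted p = 0.127) or with counts scaled from TPM (0.104). T cell markers were not level here. Cd3e (log2 fold change -2.81, adjusted p = 0.0448) and Lck (-2.48, adjusted p = 0.0533) were called lower in TCF-1 cKO. The other 4 were not called (Lck was named after its value was seen). Of the 6 markers, 2 were lower and 2 were higher in every TCF-1 cKO than in every WT library. Their sum therefore joins markers that moved in opposite directions. Per 1000 CPM of summed T cell markers Cxcr3 was at 22.5 to 79.1 in WT and 5.32 to 6.99 in TCF-1 cKO libraries and Cxcr6 at 8.49 to 67.6 and 119 to 161, without overlap.

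Markers of other cells also separated the genotypes post-transplant. The 7 dendritic cell markers summed to 335, 359 and 134 CPM in WT replicates 1 to 3 and to 73.2 to 91.4 in TCF-1 cKO, and the 4 CD4 T cell markers to 29.8, 50.3 and 9.87 and to 3.82 to 8.98. Within WT both sums had the same order of libraries as Cxcr3, highest in replicate 2 and lowest in replicate 3. The dendritic cell list was split, with 3 genes lower and 2 higher without overlap and a median log2 fold change of 0.33. The 9 monocyte, macrophage and neutrophil markers summed to 120, 125 and 148 CPM in WT and 139 to 506 in TCF-1 cKO, with overlap. Of these 9, 2 were called higher and 0 lower. The part of these cell markers in the receptor differences was not tested.

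**Figure D4:**
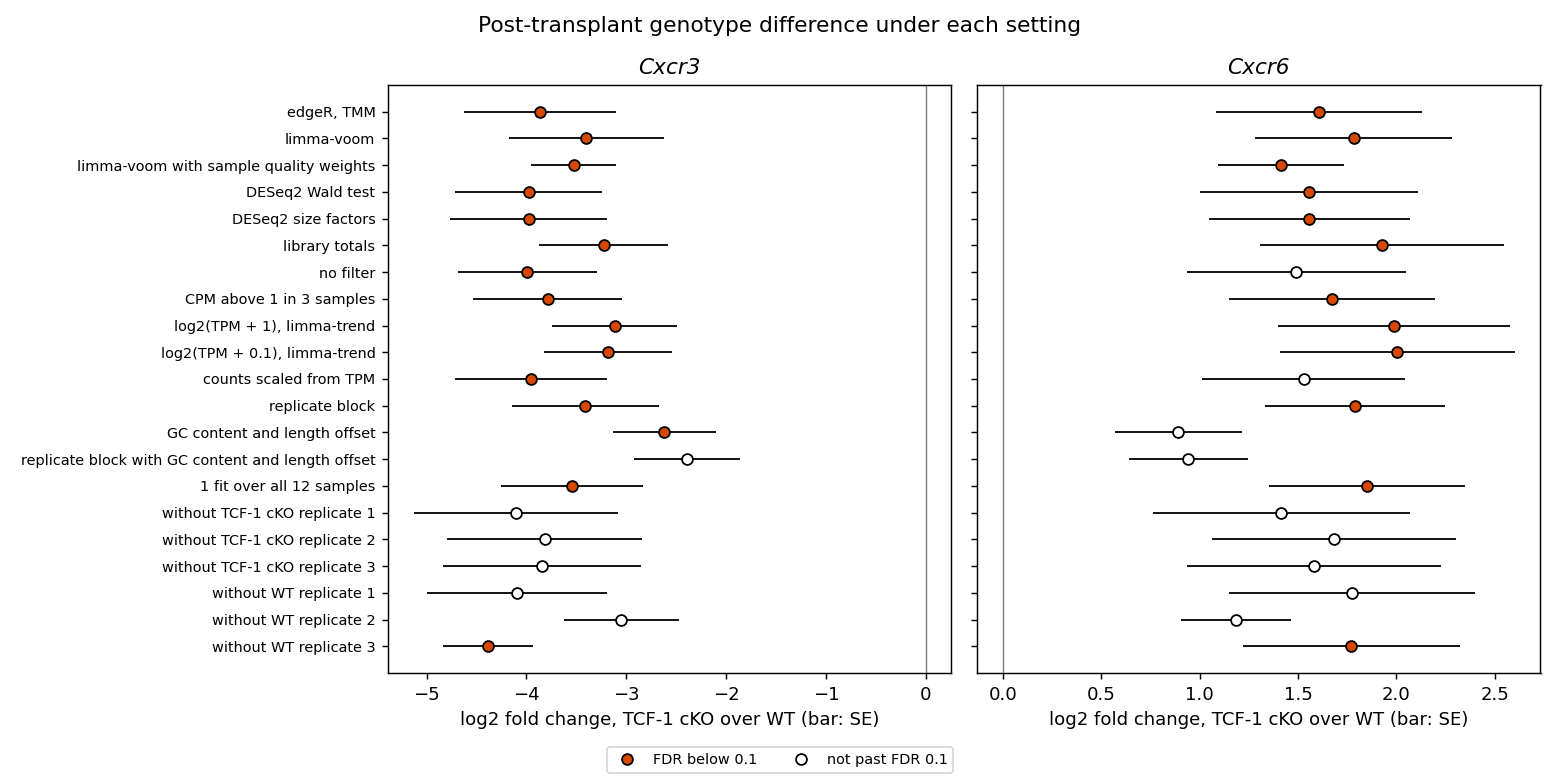
Log2 fold change of Cxcr3 (left) and Cxcr6 (right) in TCF-1 cKO over WT post-transplant cells under each setting, with bars for the SE and filled points for an adjusted p below 0.1. Every setting keeps Cxcr3 below 0 and Cxcr6 above 0, and the calls are lost when any library but WT replicate 3 is left out.

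Of the other receptors, Cx3cr1, the fractalkine receptor of cytotoxic effector cells, was at 69.8, 39.5 and 22.9 normalized CPM in WT and at 22.2, 18.3 and 4.45 in TCF-1 cKO post-transplant libraries. The groups did not overlap, but the highest TCF-1 cKO value came within 1 of the lowest WT value, and the log2 fold change of -1.89 (SE 0.74, adjusted p = 0.142) was not called. Without the library labelled WT replicate 3 Cx3cr1 was called (adjusted p = 0.0538), in a fit that called 5299 of 18183 genes. It was also called by DESeq2, by voom with quality weights and by edgeR with a replicate block (adjusted p = 0.0879). These fits called 4524, 7591 and 2038 of 16026 genes. Ccr2, the inflammatory receptor for CCL2, was at 97.2, 22.7 and 278 in WT and at 423, 170 and 290 in TCF-1 cKO libraries. The ranges overlapped through WT replicate 3, with a log2 fold change of 0.97 (SE 0.75, adjusted p = 0.427).

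Cxcr4, the marrow-homing receptor, was nearly level between genotypes at day 7, at 6.39, 9.35 and 8.54 normalized CPM in WT and 10.7, 8.23 and 9.14 in TCF-1 cKO libraries, with a log2 fold change of -0.04 (SE 0.45, adjusted p = 0.960). With library totals and with TPM all 3 TCF-1 cKO values were the higher ones, and the log2 fold change with library totals was 0.41 (adjusted p = 0.620). Ccr9 (log2 fold change 0.69, SE 0.66), Ccr6 (0.89, SE 0.85) and Ccr4 (2.10, SE 0.98) were low in both groups and overlapped in normalized CPM, with adjusted p-values of 0.202 to 0.525. With TPM Ccr6 did not overlap, at 0.135 to 1.53 in WT and 1.62 to 2.35 in TCF-1 cKO. Nor did it overlap per T cell markers (log2 difference 1.60). Ccr4 rested on 4, 10 and 17 counts in WT and 36, 89 and 16 counts in TCF-1 cKO libraries, and Ccr6 on 21, 5 and 5 and on 27, 11 and 19 counts. In normalized CPM groups did not overlap for 3 of the 8 members, beside 40.8% of all genes tested.

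Of 27 genes that pass on the signal of chemokine receptors (26 tested), 11 were called lower and 1 higher in TCF-1 cKO post-transplant cells, beside 15.4% and 2.51% of all genes tested, with a median log2 fold change of -1.14. Among the lower were Rac2 (-3.78, a GTPase of leukocyte motility), Ptk2b (-2.76), Gnai2 (-3.04, the main Gi subunit of lymphocytes) and Grk6 (-3.15, a receptor kinase), and Rgs2 (1.66), a regulator of G protein signalling, was higher. Adjusted p-values were 0.0448 for the first 4 and 0.0937 for Rgs2. Of 9 transcription factor genes, 4 were called lower and 0 higher beside the same shares, namely Tbx21 (-3.10), which encodes T-bet and drives Cxcr3 in effector T cells, Runx3 (-2.50), Gata3 (-1.92) and Klf2 (-1.82), with adjusted p-values of 0.0448 to 0.0750. With the offset for GC content and length, calls over all genes went from 2868 to 562. On that scale 3 of the coupling genes (Rac2, Ptk2b and Gnai2) and 1 factor (Gata3) stayed called lower, at adjusted p-values of 0.0976 to 0.0989, and Klf2 turned to 0.58 (adjusted p = 0.370). Of the 16 other chemokine receptors (12 tested) and the 14 ligands (6 tested) none was called.

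The genotypes were compared pre-transplant to ask whether the receptors already differed in the libraries made before transplantation. No member was called, beside 0.0373% of 18757 genes tested. At an unadjusted p below 0.05 there was 1 member, Cxcr4, beside 17.7% of all genes. Of the members DESeq2 called Cxcr4 alone, in a fit that called 1451 of 18757 genes, and limma-voom none. The median log2 fold change was -0.50 over the members and 0.05 over all genes tested.

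Cxcr4 was at 23.2, 14.0 and 29.9 normalized CPM in WT pre-transplant replicates 1 to 3 and at 5.09, 3.76 and 4.13 in TCF-1 cKO. All WT values were above all TCF-1 cKO values, with a log2 fold change of -2.14 (SE 0.58, adjusted p = 0.199). Ccr4, the receptor of skin-homing T cells, went the other way, with 1.34, 3.54 and 0.681 in WT and 8.60, 4.05 and 5.49 in TCF-1 cKO, a log2 fold change of 1.93 (SE 0.90, adjusted p = 0.285). Cxcr6 (49.8 to 80.1 in WT and 34.0 to 40.5 in TCF-1 cKO) and Ccr6 (44.7 to 53.8 and 13.7 to 35.0) also did not overlap, with log2 fold changes of -0.60 and -0.76 and adjusted p-values of 0.436 and 0.367. These 4 of 8 members without overlap stand beside 30.3% of all genes tested.

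The remaining members overlapped in normalized CPM. Cxcr3 was at 59.0, 75.0 and 66.6 in WT and at 19.0, 13.4 and 61.4 normalized CPM in TCF-1 cKO pre-transplant libraries (log2 fold change -0.96, SE 0.52, adjusted p = 0.335), and leaving out replicate 3 of TCF-1 cKO gave calls of Cxcr3 (adjusted p = 0.0301) and Cxcr4 (adjusted p = 0.0680), in a fit that called 2739 of 21575 genes. Ccr2, Ccr9 and Cx3cr1 had log2 fold changes of -0.30, -0.23 and -0.41, with SEs of 0.65, 0.45 and 0.59. With TPM Ccr9 did not overlap, at 13.9 to 20.8 in WT and 7.85 to 12.8 in TCF-1 cKO.

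T cell markers moved in the same comparison. All 6 were lower in every TCF-1 cKO than in every WT pre-transplant library, with a median log2 fold change of -1.54 and none called. Per 1000 CPM of summed T cell markers, Cxcr4 was at 16.2, 9.65 and 19.2 in WT and 12.8, 11.1 and 6.08 in TCF-1 cKO and overlapped, while Ccr4 was at 0.933, 2.44 and 0.437 and at 21.7, 11.9 and 8.07 and did not. On that scale Ccr9 (21.4 to 30.8 and 45.1 to 84.6) and Ccr6 (30.9 to 34.5 and 40.3 to 66.0) were higher in every TCF-1 cKO library. Both thus changed direction from the TMM scale. For Ccr9, TPM and the T cell marker scale separated the genotypes in opposite directions. Cxcr3, Ccr2, Cx3cr1 and Cxcr6 also turned from below to above WT in the mean, with overlap. The ratio of B cell to T cell marker sums was higher in every TCF-1 cKO library too, at 12.8 to 17.6 against 6.42 to 9.61 in WT. The part of cell makeup in these differences was not tested. No gene of the 4 pathway lists was called pre-transplant.

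Post-transplant libraries were then compared with pre-transplant libraries within each genotype. These stages also differed in the cell type markers given above, so a difference is not one of T cells alone. WT cells had 6 of 8 members called at day 7, with Cxcr3, Ccr2 and Cxcr6 higher and Ccr9, Cxcr4 and Ccr6 lower, beside 20% of all 16790 genes tested (9.7% higher and 10.3% lower). TCF-1 cKO cells had 3 of 8 called, with Ccr2 and Cxcr6 higher and Ccr6 lower, beside 36.5% of all 18535 genes tested (19.7% higher and 16.8% lower), a share near that of the members. These directions are those of the TMM scale, and values with library totals and per T cell markers follow for each receptor.

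Cxcr6 rose in both genotypes. From the values above, WT went from 49.8 to 80.1 normalized CPM pre-transplant to 127 to 503 post-transplant, a log2 fold change of 2.11 (SE 0.59, adjusted p = 0.0390). TCF-1 cKO went from 34.0 to 40.5 to 952 to 1483, a log2 fold change of 5.04 (SE 0.39, adjusted p = 0.000109). In TCF-1 cKO the rise was also called with library totals (3.41, adjusted p = 0.000108) and without any 1 library, and the groups stayed apart per 1000 CPM of T cell markers, at 102, 111 and 50.04 pre-transplant and 161, 119 and 158 post-transplant. In WT it was not called with library totals (1.25, adjusted p = 0.154) or without any 1 of the 3 pre-transplant libraries. Per T cell markers WT Cxcr6 was at 55.9, 34.4 and 45.3 pre-transplant and 38.4, 8.49 and 67.6 post-transplant, which overlapped and had the opposite direction in the mean. The TCF-1 cKO log2 difference on that scale was 0.81. The 6 T cell markers themselves rose by log2 fold changes of 1.95 to 6.04 in TCF-1 cKO and 2.14 to 2.90 in WT. Stage differences per T cell markers in TCF-1 cKO thus depend on the markers summed.

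Cxcr3 was called in WT alone, from 59.0 to 75.0 normalized CPM up to 167 to 1187, a log2 fold change of 2.95 (SE 0.69, adjusted p = 0.0192). Library totals gave 1.82 (adjusted p = 0.0480), and the call was lost without WT pre-transplant replicate 3. Per 1000 CPM of T cell markers WT Cxcr3 was at 41.2, 51.7 and 42.7 pre-transplant and 47.5, 79.1 and 22.5 post-transplant, and overlapped. The TCF-1 cKO log2 fold change was 0.75 (SE 0.56, adjusted p = 0.350) and -0.71 with library totals (adjusted p = 0.215), and it was called without TCF-1 cKO pre-transplant replicate 3 (adjusted p = 0.00597). Per T cell markers it fell from 48.1, 39.5 and 90.3 to 6.99, 5.32 and 6.29 without overlap.

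Ccr2 went from 31.4, 13.4 and 17.5 to 97.2, 22.7 and 278 normalized CPM in WT, with overlap and a log2 fold change of 2.39 (SE 0.81, adjusted p = 0.0783) that stayed called without WT post-transplant replicate 2 and was lost without any 1 of the other 5 libraries. Library totals gave 1.60 (adjusted p = 0.181). In TCF-1 cKO it went from 21.8, 15.0 and 4.54 to 423, 170 and 290, a log2 fold change of 4.40 (SE 0.65, adjusted p = 0.00108) that was called under library totals (2.68) and without any 1 library. Per 1000 CPM of T cell markers Ccr2 overlapped in both genotypes, at 9.22 to 21.9 and 1.51 to 37.4 in WT and at 6.68 to 54.9 and 21.4 to 45.8 in TCF-1 cKO.

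Ccr6, the CCL20 receptor that B cells also carry, fell the most of the 8. It went from 45.9, 44.7 and 53.8 to 1.0097, 0.389 and 0.427 normalized CPM in WT (log2 fold change -6.46, SE 0.76, adjusted p = 0.00109) and from 26.2, 13.7 and 35.0 to 2.36, 0.862 and 1.17 in TCF-1 cKO (log2 fold change -4.09, SE 0.62, adjusted p = 0.00118). Both calls stood with library totals (-7.42 and -5.65) and without any 1 library, and per T cell markers the log2 differences were -9.27 and -8.34, without overlap. All 7 B cell markers fell with it, by a median log2 fold change of -7.28 in WT and -6.09 in TCF-1 cKO, all called. The 3 genes most like Ccr6 over the 12 libraries were the B cell genes Fcer2a (Pearson's r 0.99) and Igkc (0.99) and the inhibitory receptor Pirb (0.99). The part of B cell RNA in the fall of Ccr6 was not tested. Of the few post-transplant Ccr6 counts, the noncoding isoform Ccr6-209 held 0% to 41.2% by library in WT and 25.6% to 67.8% in TCF-1 cKO, on at most 12.8 counts, against 0.837% to 10.98% pre-transplant.

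Ccr9, the gut-homing receptor, went from 33.6, 30.99 and 48.1 to 6.54, 2.41 and 16.6 normalized CPM in WT (log2 fold change -2.42, SE 0.74, adjusted p = 0.0539), without overlap, and the call stayed with library totals (-3.23, adjusted p = 0.0180) and without WT post-transplant replicate 3, and was lost without any 1 of the other 5 libraries. In TCF-1 cKO it went from 33.5, 18.8 and 30.6 to 14.2, 11.52 and 21.1, with overlap and a log2 fold change of -0.83 (SE 0.43, adjusted p = 0.183), and library totals called it at -2.42 (adjusted p = 0.00156). Per 1000 CPM of T cell markers Ccr9 was lower in every post- than in every pre-transplant library of both genotypes, with log2 differences of -5.35 and -5.05.

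Cxcr4 moved in opposite directions on the TMM scale. In WT it went from 14.0 to 29.9 down to 6.39 to 9.35 normalized CPM, a log2 fold change of -1.73 (SE 0.61, adjusted p = 0.0913). No fit without 1 library called it, nor did the fit with the GC content and length offset (-1.17, adjusted p = 0.224), while library totals did (-2.67, adjusted p = 0.0160). In TCF-1 cKO it went from 3.76 to 5.09 up to 8.23 to 10.7, a log2 fold change of 1.10 (SE 0.48, adjusted p = 0.121). With library totals the TCF-1 cKO value was -0.51 (adjusted p = 0.474), and per 1000 CPM of T cell markers it fell from 6.08 to 12.8 down to 1.03 to 1.15, without overlap, as in WT (9.65 to 19.2 down to 0.617 to 1.15).

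Cx3cr1 and Ccr4 were not called in either genotype. Cx3cr1 had log2 fold changes of 1.11 (SE 0.66) in WT and 0.34 (SE 0.65) in TCF-1 cKO, and Ccr4 of -1.53 (SE 1.10) and -0.72 (SE 0.74), with adjusted p-values of 0.314 to 0.729. Library totals called Ccr4 lower in TCF-1 cKO (-2.30, adjusted p = 0.0293) and not in WT (-2.50, adjusted p = 0.163), and gave 0.13 in WT and -1.21 in TCF-1 cKO for Cx3cr1. Per T cell markers both genes were lower in every post- than in every pre-transplant library of both genotypes. The log2 differences on that scale were -1.55 in WT and -4.04 in TCF-1 cKO for Cx3cr1, opposite to the TMM direction, and -4.12 and -5.27 for Ccr4. Groups did not overlap for 5 of 8 members in WT and 4 of 8 in TCF-1 cKO, beside 32.2% and 46.9% of all genes tested.

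**Figure D5:**
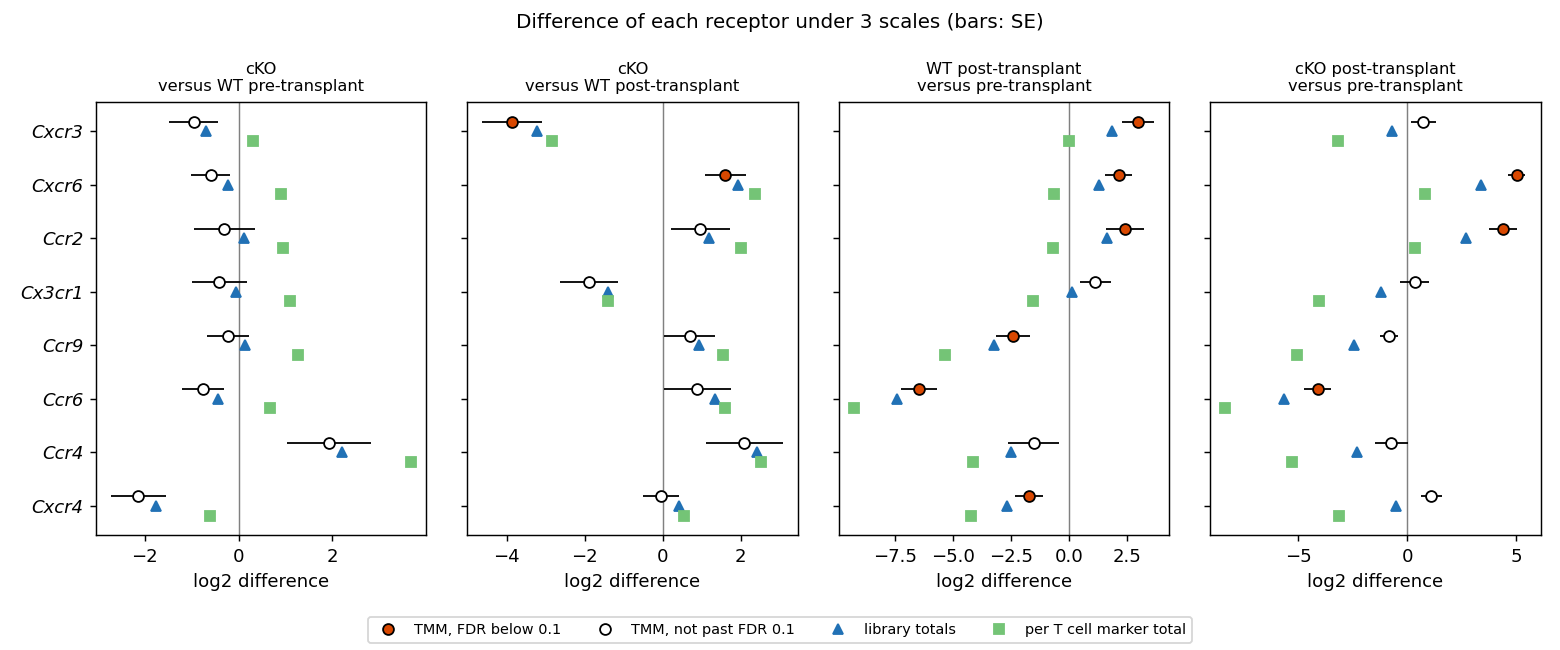
Log2 difference of each receptor in the 4 comparisons under TMM scaling (circles, with bars for the SE, filled where the adjusted p is below 0.1), library totals (triangles) and summed T cell markers (squares). Between genotypes post-transplant the 3 scales give one direction for every receptor but Cxcr4, while in the stage comparisons the T cell marker scale lies below the others for all 8.

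Other genes of the receptor system moved between stages as well. Of the 16 other chemokine receptors (12 tested), 1 rose and 5 fell in WT and 2 rose and 6 fell in TCF-1 cKO. Of all genes tested, 9.7% were called higher and 10.3% lower in WT, and 19.7% and 16.8% in TCF-1 cKO. The genes of these lists were not scaled to T cell markers, whose median log2 fold change was 2.49 in WT and 3.99 in TCF-1 cKO. The lymph node receptor Ccr7 (log2 fold change -4.54 in WT and -4.91 in TCF-1 cKO) and the follicle receptor Cxcr5 (-6.05 and -7.46), which naive and follicular lymphocytes carry, fell in both, with adjusted p-values of 0.000190 to 0.00431. Ackr2 (-6.25) and Cxcr2 (-2.31) also fell in WT, and Cxcr2 (-1.76) and Ccr1 (-2.11) in TCF-1 cKO, where Ccr8 (2.77) rose. Cxcl16, the ligand of CXCR6, fell in WT (-3.54, adjusted p = 0.0136), 1 of 7 ligands tested, and Cx3cl1 (-4.48) fell and Ccl25 (1.73) rose of the 9 tested in TCF-1 cKO.

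Of the 27 coupling genes 5 rose and 8 fell in WT, and 5 rose and 4 fell in TCF-1 cKO. Over all genes tested, 9.7% were called higher and 10.3% lower in WT, and 19.7% and 16.8% in TCF-1 cKO. These are TMM values, and a rise may be smaller or turn on the T cell marker scale, which was not computed here. In WT the receptor kinases Grk3 (-5.05) and Grk5 (-4.78), the arrestin Arrb1 (-3.52) and Rgs2 (-3.54) fell, and Arrb2 (2.75), Gng2 (2.28), Gnb2 (2.21) and Rgs16 (3.73) rose. In TCF-1 cKO Rgs1 (6.07), Gng2 (3.79), Rac1 (1.91) and Gnai3 (1.63) rose, and Arrb1 (-2.71), Plcb3 (-2.72), Grk3 (-1.74) and Ptk2b (-1.53) fell. With library totals Gnai3 turned to -0.06, and Rac1 (0.27), Eomes (0.10), Prdm1 (0.33) and Ccl25 (0.06) were no longer called. Of the 9 factors Tbx21 rose in both genotypes (2.89, adjusted p = 0.0185, and 2.67, adjusted p = 0.00444) and Zeb2 fell in both (-3.57 and -2.36). Foxo1 (-2.77) fell in WT, and Eomes (1.76) and Prdm1 (1.95), genes of effector differentiation, rose in TCF-1 cKO.

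An interaction term in a fit of the 12 libraries tested whether the genotype difference itself changed with transplantation. No member was called, beside 0.00465% of 21526 genes tested. At an unadjusted p below 0.05 there were 4 members, Cxcr3 (difference of the log2 fold changes -2.45, SE 0.92), Cxcr6 (2.69, SE 0.70), Cxcr4 (2.58, SE 0.74) and Ccr6 (2.16, SE 0.83), with adjusted p-values of 0.233 to 0.258, beside 15.7% of all genes. DESeq2 called Cxcr3, Cxcr6 and Cxcr4, among 1713 of 21526 genes called in that fit, and limma-voom called no member. Without the library labelled WT post-transplant replicate 3, edgeR called Cxcr3, Ccr2, Cxcr6 and Cxcr4, among 2093 of 23972 genes called in that fit.

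The genes most like each member were sought among 18960 genes at 1 CPM or more in at least 3 libraries, by Pearson's r of log2(normalized CPM + 1). These are descriptions over 12 libraries that share stage, depth and base composition. For Cxcr3 they were Rangap1, Atp5d and the gut-homing integrin subunit Itgb7 (r 0.99 each), for Cxcr6 Epsti1 and Gm6710 (0.99 each) and for Ccr2 Cenpl, Hmgb1 and Sar1b (0.99 each). For Ccr9 they were Trim30b (0.97), Zc3h7a and Arid4a (0.96 each), for Cx3cr1 Afg3l1 (0.94), Tmem110 (0.91) and Babam2 (0.90), for Ccr4 Catsper4, Pcdhb5 (0.94 each) and Apol9a (0.93), and for Cxcr4 Fyb (0.90), Wsb1 and Acat2 (0.88 each).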

How the data were processed

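RNA of sorted splenic CD8 T cells was turned into cDNA with SMART-Seq HT and sequenced as paired-end reads. The authors quantified transcripts with kallisto 0.46.2. The deposited files give an estimated count, as the authors made it, for 117497 transcripts, not scaled for depth or length. The deposited TPM values were computed by kallisto by the authors and are scaled for length and depth. The processing notes also name limma and mm9 without a role, and the transcript release is not given in the sources used here. Effective lengths were used for tests only in the alternative with counts scaled from TPM.

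Transcripts were joined to GENCODE M21 without version numbers, which gave a gene for 116374 of them. Estimated counts were summed per gene and rounded to whole numbers. Each comparison was fitted on its own 6 libraries with edgeR 4.0.16 (TMM, filterByExpr, quasi-likelihood test, Benjamini-Hochberg adjustment over all genes, FDR of 0.1), and the interaction on all 12. SEs were derived from the fold change and F. The paper's voom and limma (3.58.1) was an alternative, as were DESeq2 1.42.0, library totals, filters, TPM scales, an FDR of 0.05, a replicate block, a GC content and length offset (loess, span 0.4, degree 2), 1 shared fit of the 12 libraries, and dropping each library in turn. Exact permutation tests used SciPy 1.17.1, in R 4.3.3 and Python 3.11.15. The tests were also run on simulated counts with capped dispersions, independent libraries and no trend on GC content. That setting differs from these data, so it cannot give the error rates here.

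The members, the 4 pathway lists and the marker lists were chosen with earlier results of these data known. Genes named are the members, Tcf7, Cd8a, Cd8b1, Cd4 and Cd3e, up to 4 list genes in each direction past the FDR by smallest p, and the 3 genes most correlated with each member, except a few genes that are not reported here. Promoter windows came from RefSeq (GRCm38.p6), where all 8 members matched. Other data of the study, such as flow cytometry and a qPCR array of chemokine and chemokine receptor genes, were not analysed here. The paper describes the array genes as generally higher in TCF-1 cKO than in WT cells pre-transplant. Post-transplant it describes them as generally lower in spleen and liver. The array used pooled cells without replicates and was not compared gene by gene here.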

Additional observations from a re-analysis of the deposited data

Results flagged for a closer look

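The genotype difference of Cxcr6 had opposite directions at the 2 stages, with every TCF-1 cKO library below every WT library pre-transplant and above every WT library post-transplant on the TMM scale. The log2 difference of the differences was 2.69 (SE 0.70), with an adjusted p of 0.233 (quasi-likelihood test of edgeR, adjusted by Benjamini-Hochberg). With library totals and with TPM the pre-transplant groups overlapped. Per 1000 CPM of summed T cell markers the log2 difference was 0.90 pre-transplant, with overlap, and 2.37 post-transplant, so the direction was the same at both stages.

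The stage difference of Cxcr4 had opposite directions in the 2 genotypes, with every post-transplant library below every pre-transplant library in WT and above in TCF-1 cKO on the TMM scale. The log2 difference of the differences was 2.58 (SE 0.74), again with an adjusted p of 0.233 from edgeR after Benjamini-Hochberg. With library totals the TCF-1 cKO groups overlapped, and with TPM all 3 TCF-1 cKO post-transplant values were the lower ones. Per 1000 CPM of summed T cell markers Cxcr4 was lower post-transplant in both genotypes, with log2 differences of -4.24 in WT and -3.11 in TCF-1 cKO. The TMM factors and T cell marker sums that differ between stages are given above, and their part in this reversal was not tested.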

How the results depend on the processing

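Counts of receptors called that moved by more than 1.5 times, or from 0, are given first, and smaller changes follow. In TCF-1 cKO over WT pre-transplant, 0 receptors became 4 with voom and sample quality weights, 1 with DESeq2 and 1 without a filter. Those fits called 7566 and 1451 of 18757 genes and 619 of 32123, against 7 of 18757 in the main fit. In TCF-1 cKO over WT post-transplant, 2 receptors became 4 with quality weights, 1 with counts scaled from TPM, 1 with the GC content and length offset, 1 at an FDR of 0.05 and 0 with the replicate block and the offset together. Over all genes 2868 of 16026 became 7591 with quality weights, 562 with the offset and 2 with block and offset. Counts scaled from TPM called 2603 of 16200. In WT post- over pre-transplant, 6 receptors became 3 with either TPM scale and 3 at an FDR of 0.05. Over all genes 3362 of 16790 became 6732 with log2(TPM + 1) and 6666 with log2(TPM + 0.1). In TCF-1 cKO post- over pre-transplant, 3 receptors became 5 with quality weights, library totals and either TPM scale. Over all genes 6774 of 18535 became 8834 with quality weights, 12268 with library totals, 13174 with log2(TPM + 1) and 13216 with log2(TPM + 0.1). Smaller changes were 3 with DESeq2 between genotypes post-transplant, 4 with library totals, 5 with limma-voom, DESeq2 size factors, no filter or block and offset and 7 with quality weights between stages in WT, and 4 with limma-voom, DESeq2, DESeq2 size factors, the offset or block and offset between stages in TCF-1 cKO. Over all genes DESeq2 called 4524 of 16026 between genotypes post-transplant. Between stages in WT, library totals called 4853, limma-voom 3363, DESeq2 size factors 3388, block and offset 3213 and quality weights 6318 of 16790. No filter called 3983 of 31075. Between stages in TCF-1 cKO, limma-voom called 7395, DESeq2 7874, DESeq2 size factors 6717, the offset 7172 and block and offset 6191 of 18535. The interaction count of 0 receptors became 3 with quality weights and 3 with DESeq2, in fits that called 3440 and 1713 of 21526 genes. Leaving out 1 library gave 0 to 2 and 0 to 3 receptors called between genotypes pre- and post-transplant, 1 to 4 and 3 to 4 between stages in WT and TCF-1 cKO, and 0 to 4 for the interaction. Over all genes these fits called, in the same order, 0 to 2739, 0 to 5299, 1579 to 4156, 5242 to 7114 and 0 to 2093. Receptors whose groups did not overlap went from 4 to 2 and from 3 to 5 between genotypes pre- and post-transplant with TPM. Between stages they went from 5 to 3 in WT with library totals and with TPM, and from 4 to 8 with TPM and 7 per T cell marker total in TCF-1 cKO. Leaving out 1 library gave 4 to 5, 3 to 6, 5 to 6 and 4 to 6 in the 4 comparisons.

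Replicate numbers were not treated as pairs in the main fits, and correlations of same-numbered deviations ran from -0.16 to 0.23. Between genotypes post-transplant each replicate correlated best with its own number (0.0995, 0.0538 and 0.127), while in the other comparisons some did not. Such low correlations cannot decide whether libraries were paired. A replicate block called 0, 3, 4 and 3 receptors in the 4 comparisons and 0 for the interaction. Over all genes it called 0, 2038, 3097, 5478 and 0. Directions turned in small values. With library totals, Ccr2 and Ccr9 were at 0.11 and 0.13 between genotypes pre-transplant and Cxcr4 at 0.41 post-transplant, and in TCF-1 cKO post- over pre-transplant Cxcr3 was at -0.71, Cx3cr1 at -1.21 and Cxcr4 at -0.51. With log2(TPM + 1) and log2(TPM + 0.1) these 3 were at -0.86 and -0.89, -1.03 and -1.44, and -0.50 and -0.60, Cx3cr1 was at -0.10 and -0.13 in WT post- over pre-transplant, Cxcr4 was at 0.22 and 0.28 between genotypes post-transplant, and the interaction of Ccr4 was -0.63 and -0.21. Cxcr4 between genotypes post-transplant was also at 0.086 with quality weights, 0.027 with the CPM filter and 0.21 in 1 fit over all 12 libraries, and the interaction of Ccr4 was -0.084 with the replicate block and -0.44 with block and offset. Fits without 1 library spanned 0 for Ccr2 (-0.84 to 0.075) and Cx3cr1 (-0.70 to 0.0063) between genotypes pre-transplant, Cxcr4 (-0.23 to 0.065) post-transplant, Cx3cr1 (-0.027 to 0.82) in TCF-1 cKO between stages and the interaction of Ccr4 (-0.35 to 1.25). The causes of these changes were not tested. Ccr4 and Ccr6 were not tested with the CPM filter post-transplant, nor Ccr4 in WT between stages. With 4 to 101 counts per library, depth limits what Ccr4 can show.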
